A study of Mus musculus with 6 samples.

Results

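The immediate early and AP-1 genes described here are Fos, Fosb, Jun, Junb, Jund, Egr1, Atf3, Ier2, Ier3 and Klf4. They were chosen by name, as rapidly induced regulators that respond to injury and to tissue handling, and all 10 are among the 14016 genes listed for injured quadriceps muscle. The muscle came from 3 WT mice (B6 in the sample titles) and 3 mice labelled GATA-1 mutant, the ΔdblGATA line, in which a GATA-binding site of a Gata1 promoter is deleted and eosinophils are missing. The ΔdblGATA deletion is carried by every cell, so that other cells that use this promoter can be affected too. All 6 mice had a volumetric muscle loss injury, the surgical removal of a piece of the quadriceps, with no implant, and tissue was taken on day 7. The study's methods describe the surgery in young adult female C57BL/6 mice, with saline as the control filling and both legs operated on, and give no age for the ΔdblGATA mice separately. No uninjured muscle and no earlier time point was analysed here. The values are the authors' mean over all 6 samples of log2 CPM, the log2 of read counts scaled to a common library size, which weighs both genotypes equally and has no SD or per-mouse value beside it. They therefore give the level of each gene in injured muscle of both genotypes together, and no difference between WT and ΔdblGATA is reported here.

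Immediate early genes are switched on within minutes of a signal, without new protein synthesis, and their messenger RNAs are usually short-lived. Many encode transcription factors. AP-1 is a dimer of basic leucine zipper proteins in which a Jun protein pairs with another Jun protein, a Fos protein or an ATF protein. Fos proteins cannot pair with themselves and need a Jun partner. In skeletal muscle these genes are known to respond to exercise, to injury and to the handling of tissue during dissection and dissociation, and in macrophages they respond to inflammatory signals. Whole muscle holds fibres, leukocytes, fibroblasts and vessels, so a level cannot be assigned to a cell type, and more cells of a type and more RNA per cell cannot be told apart.

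The labelled tissue was checked against marker genes. All 8 skeletal muscle markers were listed, at 10.70 to 14.65 log2 CPM, and the lowest of them, Mb (myoglobin), lay above 99.7% of the listed genes. All 6 leukocyte and macrophage markers, 3 fibroblast markers and 3 endothelial markers were listed too, whereas of 10 eosinophil markers, Gata1 included, only Ear2 was, at 0.13 log2 CPM. Since Gata1 is not listed, its level gives no check of the genotype labels. The lowest mean of any gene was -4.08 log2 CPM and the highest 15.03. Total counts per sample were not analysed here, so the depth is unknown, and the number of mice limits the precision of every level below.

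The control regions nearest the start of these genes are shown first, because signal-dependent elements of immediate early genes often lie there. RefSeq (GRCm38.p6) gave a promoter for 8 of the 10 genes, and Ier2 and Egr1 had no entry. The 90 bases before the RefSeq start site of these 8 genes follow, 5′ to 3′ on the strand of the gene, with matches to the motifs named in the next paragraph in capitals. The RefSeq start of Jund lies 1210 bases before the GENCODE start of the gene, and that of Atf3 34706 bases inside the gene as GENCODE annotates it, so these stretches are not next to those starts. RefSeq and GENCODE starts also differ by 30 bases in Junb, 29 in Ier3, 9 in Klf4 and 6 in Fosb.
Fos (chr12:85473800-85473889, plus strand): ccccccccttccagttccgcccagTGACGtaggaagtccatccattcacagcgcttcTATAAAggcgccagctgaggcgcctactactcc
Fosb (chr7:19310046-19310135, minus strand): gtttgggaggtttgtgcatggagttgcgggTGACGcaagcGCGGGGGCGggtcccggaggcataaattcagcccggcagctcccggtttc
Jun (chr4:95052223-95052312, minus strand): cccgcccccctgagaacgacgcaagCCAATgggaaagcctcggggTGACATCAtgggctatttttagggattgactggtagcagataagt
Junb (chr8:84978749-84978838, minus strand): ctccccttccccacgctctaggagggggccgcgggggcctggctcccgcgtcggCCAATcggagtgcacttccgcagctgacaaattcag
Jund (chr8:70697649-70697738, plus strand): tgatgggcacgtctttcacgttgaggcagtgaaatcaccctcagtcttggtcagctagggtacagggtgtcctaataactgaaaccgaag
Atf3 (chr1:191183334-191183423, minus strand): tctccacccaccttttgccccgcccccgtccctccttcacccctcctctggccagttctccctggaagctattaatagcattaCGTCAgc
Ier3 (chr17:35821623-35821712, plus strand): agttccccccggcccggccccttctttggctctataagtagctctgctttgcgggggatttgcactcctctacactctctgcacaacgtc
Klf4 (chr4:55532476-55532565, minus strand): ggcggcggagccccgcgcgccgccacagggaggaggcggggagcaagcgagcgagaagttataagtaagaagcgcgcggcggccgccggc

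The letters searched, on both strands, were TGACG (a half-site of the cyclic AMP response element), TGACNTCA (an element known to be bound by ATF and Jun proteins), TGANTCA (the AP-1 site), TATAAA (the TATA box), CCAAT, GCGNGGGCG (an Egr1 element) and the CArG box, the core of the serum response element. The half-site TGACG occurred in the 90 bases of 3 of the 8 genes, Fos, Fosb and Atf3, where 9.83% of all 32851 promoters have it in the same stretch. In Fos it lay at -66 to -62 from the start site, with a TATA box at -33 to -28. The stretch of Jun held TGACNTCA at -45 to -38, found in 4.34% of all promoters, and no other gene of the 8 had it, either there or in the full window of 300 bases. Fosb had the Egr1 element at -50 to -42 (2.82% of all promoters). CCAAT, which 17.4% of promoters have in this stretch, was present in Jun and Junb. The full window ran from 250 bases before the start site to 50 bases from it. There, 5 of 8 genes had TGACG, against 20.8% of all promoters. In the same window 0 of 8 had the AP-1 site or the CArG box, which were found in 7.81% and 1.63% of all promoters. Sites outside this window were not searched, and Egr1 and Ier2 had no promoter to search. The TATA box occurred in the full window of 2 of 8 genes, Fos and Junb, against 13.6% of all promoters. In Junb it lay at 0 to 5 from the RefSeq start site, outside the printed stretch. The GENCODE start of Junb is 30 bases further downstream, so the box lies before that start. TGACG can lie within TGACNTCA where the middle base is G. Such matches describe letters and not binding.

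Jun, which encodes c-Jun, the subunit that forms AP-1 with Fos proteins, had a mean of 7.19 log2 CPM. That is a geometric mean of 146 CPM, rank 836 of 14016, above 94.0% of the listed genes. Jund followed at 6.84 log2 CPM, a geometric mean of 114 CPM, above 91.9% of genes. JunD is known as the Jun protein that is present in resting cells, while c-Jun and JunB are the inducible ones. Junb stood at 5.29 log2 CPM (39.3 CPM), above 74.0% of genes. All 3 Jun genes thus lay above the median gene, which was at 4.03 log2 CPM, and Jun and Jund were above 90% of the table.
Of the Fos genes, Fos, the classical immediate early gene, had a mean of 4.06 log2 CPM, a geometric mean of 16.7 CPM. This was above 50.8% of the listed genes and so next to the median gene. Fosb, a relative of Fos that is known for its stable splice variant in repeatedly stimulated cells, was at -0.96 log2 CPM, or 0.515 CPM, above only 2.78% of genes. Fosb was the single member with a mean below 0 log2 CPM, as had 1198 genes (8.55%) of the table. Atf3, a stress-induced factor that pairs with Jun proteins and often represses its targets, was at 4.01 log2 CPM (16.2 CPM), above 49.7% of genes.
Egr1, a zinc finger factor induced through serum response factor, was at 5.56 log2 CPM (47.2 CPM), above 78.4% of genes. Klf4, a zinc finger factor known from epithelium, monocytes and macrophages, had a mean of 4.98 log2 CPM (31.6 CPM) and lay above 68.3% of genes. Ier2, a gene known to be induced by growth factors, had a mean of 4.20 log2 CPM (18.4 CPM), above 53.6% of genes, and Ier3, which is known to modulate cell survival and MAP kinase signalling, had 3.03 log2 CPM (8.19 CPM), above 33.9%. In all, 7 of the 10 genes were above the median gene, 3 (Jun, Jund and Egr1) were above the 75th percentile and 1 (Fosb) was below the 25th. Their median, 4.59 log2 CPM, compares with 4.03 log2 CPM over all listed genes.

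**Figure D1:**
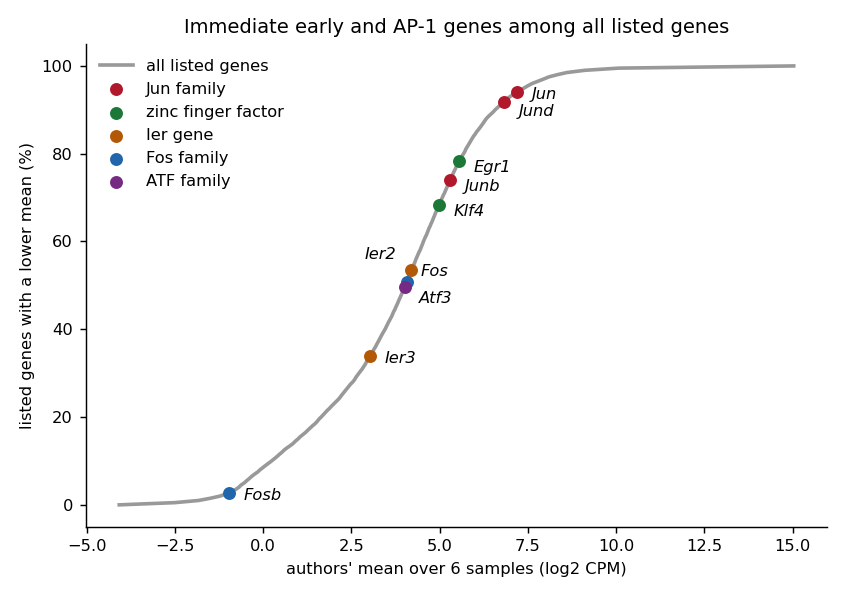
The horizontal axis is the authors' mean over 6 samples in log2 CPM and the vertical axis the percent of the 14016 listed genes with a lower mean. The grey line stands for all listed genes and each point for 1 gene, coloured by family. Jun and Jund sit near the top of the curve, Fos, Atf3 and Ier2 near its middle, and Fosb near its foot.

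A long transcript yields more fragments than a short one at the same number of molecules, and the places on the CPM scale carry that difference. For an order among genes each mean was therefore divided by the length of the longest coding transcript in GENCODE M21 (log2 CPM per kilobase). On this scale Jund was the highest member, at 6.10 log2 CPM per kilobase, above 94.5% of the 13655 coding genes with a length. Jun followed at 5.52 and Junb at 4.44, so Jund was 1.50 times the level of Jun per kilobase, and Jun 2.11 times that of Junb. The level of Jund is uncertain, since part of its sequence is shared with an antisense gene. The length of Jund is uncertain too, because its RefSeq start lies 1210 bases before the GENCODE start. A longer Jund transcript would lower its level per kilobase, so its place above Jun can depend on the length used. Per kilobase of the median coding transcript, Klf4 (5.20) stood above Junb (4.44). With the longest coding transcript, the Jun genes filled the first 3 places of the order.
Next came Ier2 at 3.59 log2 CPM per kilobase, Egr1 at 3.40 and Klf4 at 3.38. These levels were above 72.0%, 69.0% and 68.8% of coding genes. Atf3 at 3.03, Fos at 2.99 and Ier3 at 2.86 log2 CPM per kilobase followed closely. Ier3, with the shortest transcript of the 10, was above 59.8% of coding genes per kilobase. Ier2 stood above Egr1 and Klf4, the reverse of their places in CPM. That reversal depends on the transcript chosen. Per kilobase of the median coding transcript, Ier2 (3.59) was below Egr1 (3.65) and Klf4 (5.20). In the order by longest transcript, neighbours from Ier2 down to Ier3 differed by 0.01 to 0.36 on the log2 scale. No spread between mice stands beside these means, so whether neighbours differ was not tested. Fosb was lowest, at -2.88 log2 CPM per kilobase, which is 5.73 lower on the log2 scale than Ier3, the gene next above it. That gap, 53.1-fold, was wider than the 3.24 on the log2 scale between Jund and Ier3, the highest and lowest of the other 9 genes.

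**Figure D2:**
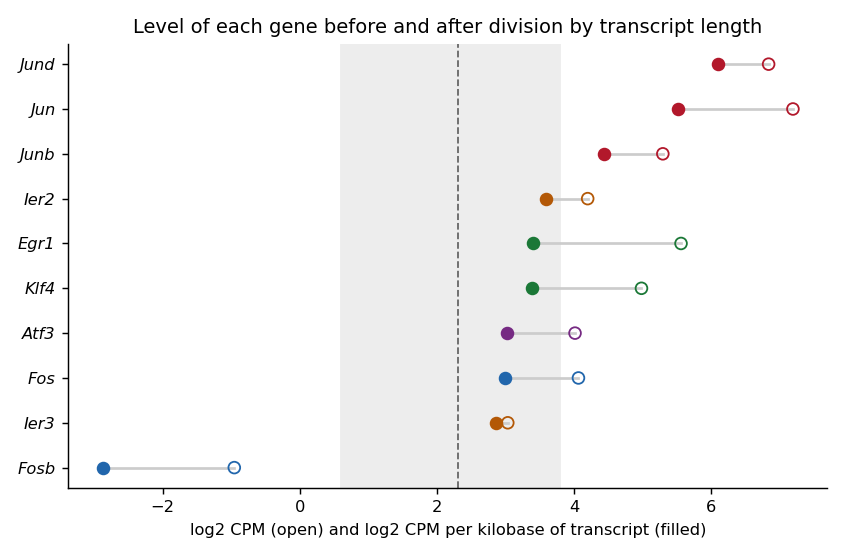
Each row is 1 gene, with its authors' mean in log2 CPM (open circle) and the same mean per kilobase of its longest coding transcript (filled circle), both on the horizontal axis. The dashed line and grey band mark the median and the middle 50% of coding genes per kilobase; 9 of the filled circles lie to the right of the median and that of Fosb lies far to its left.

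AP-1 needs Jun proteins in every dimer with Fos, and the transcripts of the families can be set side by side per kilobase. The geometric means of Jun, Junb and Jund summed to 136 CPM per kilobase. Of the 4 Fos genes, Fosl1 is not listed, and Fos, Fosb and Fosl2 summed to 15.0 CPM per kilobase, so the Jun sum was 9.09 times the Fos sum, and without Jund, whose level is uncertain, 4.51 times. Jund gave 50.4% of the Jun sum, Jun 33.7% and Junb 15.9%. Fos gave 53.0% of the Fos sum, Fosl2, which encodes Fra-2, 46.1%, and Fosb 0.910%. Against Fos and Fosb alone the Jun sum was 16.9 times as large. These are sums of means and carry no error, and transcript levels are not protein levels.

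The reads of Jund and Jun can be shared with an antisense neighbour. Jund (chromosome 8 of GRCm38, 70698949 to 70700616) overlaps the antisense gene Gm11175 on the opposite strand, and 50.1% of its 31-base words, the unit by which kallisto matches reads, also occur in Gm11175. Jun (chromosome 4, 95049034 to 95052222) shares 6.39% of its words with the antisense gene Junos. Neither Gm11175 nor Junos is listed under these names. Whether reads were assigned by strand is not given in the sources used here, so the level of Jund in particular is uncertain. Junb (chromosome 8, 84974484 to 84978718) overlaps the end of Prdx2 on the opposite strand in the annotation, but its longest coding transcript has no word in common with Prdx2 or any other gene. Only the longest coding transcript of each member was compared. Other Junb transcripts may therefore share words with Prdx2, which was at 7.43 log2 CPM. Egr1, Ier2, Fos, Atf3 and Ier3 share no word with another gene, Fosb shares 0.0800% and Klf4 2.03%.

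The structure of the genes was not used to choose them. Of the 10 genes, 4 consist of a single exon in their longest coding transcript (Jun, Junb, Jund and Ier2), against 2.58% of 13655 coding genes in the table. No member had more than 5 exons, where the median coding gene has 9. Of the 10 genes, 9 span less than the median coding gene, which spans 24564 bp. Ier3 (chromosome 17, 35821684 to 35822923) spans 1240 bp, Ier2 (chromosome 8, 84661331 to 84662852) 1522 bp and Fos (chromosome 12, 85473890 to 85477273) 3384 bp. Egr1 (chromosome 18, 34859823 to 34864984), Klf4 (chromosome 4, 55527143 to 55532466) and Fosb (chromosome 7, 19302696 to 19310051) span 5162, 5324 and 7356 bp. Atf3 (chromosome 1, 191170296 to 191218039) is the exception, with 47744 bp as GENCODE annotates it. The RefSeq start of Atf3 lies 34706 bases inside that span, so its length depends on the start chosen. Ier2, Junb and Jund lie on the same chromosome.
The GC content of the transcripts ran from 51.9% in Fos to 67.1% in Jund, against a median of 50.3% over coding genes. Fos and Atf3 were near that median, above 58.4% and 59.9% of coding genes, whereas Jund, Junb and Ier2 were above 99.9%, 98.6% and 96.9%. AU-rich pentamers (ATTTA) in the 3′ UTR, elements known to speed the decay of messenger RNA, were found in 9 of the 10 genes and in 69.0% of all coding genes. Ier3 had 5 of them in 613 nt, a density of 8.16 per kilobase that was above 98.8% of genes, Fos 4 in 815 nt (4.91 per kilobase) and Junb 2 in 485 nt (4.12 per kilobase). Ier2 had 0, and Fosb had 1 in 2145 nt, a density of 0.466 per kilobase. The median count was 2 in the members and 2 in all coding genes, and the median density was 2.20 per kilobase over the members and 1.35 over genes with at least 100 nt of 3′ UTR. The members were so few and so related that these shares are given as a description.

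**Figure D3:**
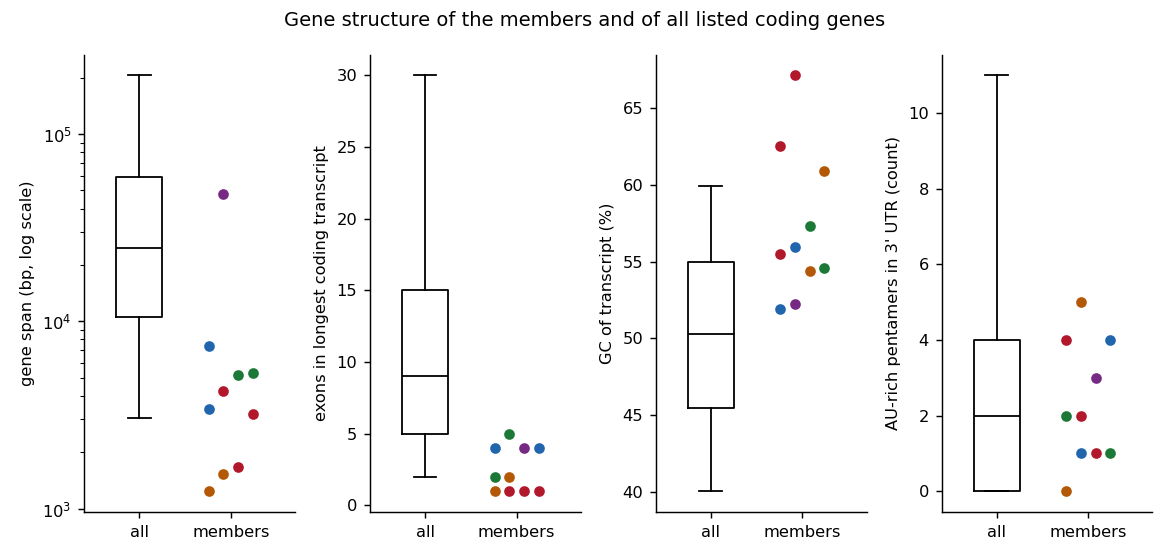
Boxes show all 13655 listed coding genes (median, middle 50%, whiskers from the 5th to the 95th percentile) and points the 10 members, coloured as in the plot of the members among all listed genes. The panels give gene span (bp, log scale), exons, GC content in percent and the number of AU-rich pentamers in the 3′ UTR. In the GENCODE annotation 9 members span less than the median gene, and the exception is Atf3.

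Other genes of the pathway were taken from a list of 46, of which 44 are listed and Fosl1 and Batf2 are not. Their median was 4.74 log2 CPM, against 4.59 for the members. Of the 44 genes, 31 were above the median gene, 14 above the 75th percentile and 8 below the 25th. Not divided by length, the highest levels were those of Mcl1, a survival gene of the Bcl2 family (7.61 log2 CPM), Atf4, a stress-response factor (7.15), Mapk14, the kinase p38α (6.65), Mafg, a small Maf protein (6.32), Nr4a1, an orphan nuclear receptor (6.21), and Dusp1, a phosphatase that switches off MAP kinases (6.15). The lowest were Egr3 at -0.47, Batf3 at 0.12, Batf at 0.17 and Arc, a gene best known from neurons, at 0.52 log2 CPM. Per kilobase the order of the highest was Atf4 (6.36), Mcl1 (5.84), Dusp1 (5.16), Nr4a1 (4.86), Ccn1 (4.82) and Mapk14 (4.81), and Mafg was at 4.02.
By role, all 4 of the upstream MAP kinases were above the median gene, at 5.10 to 6.65 log2 CPM. The 6 transcription factors upstream of immediate early genes, among them Srf at 6.09 and Elk1 at 4.20 log2 CPM, were above the median gene as well. Of the 5 feedback regulators, Dusp1 was highest, and Zfp36, which binds AU-rich elements, lowest at 3.80 log2 CPM. The other immediate early regulators spread most widely, from -0.47 to 7.61 log2 CPM over 19 genes, and the AP-1 partners and relatives ranged from 0.12 to 7.15 over 10 genes.
Paralogues stood at different levels in some families and at like levels in others, as the following genes, named after their values were seen, show. Per kilobase, Egr1 was at 3.40 log2 CPM, Egr2 at 0.49 and Egr3 at -2.45, and Nr4a1 was at 4.86, Nr4a2 at 0.33 and Nr4a3 at -0.71. Btg1 and Btg2 were at 3.50 and 3.34 log2 CPM per kilobase, Nab1 and Nab2 at 2.68 and 3.19, and Batf and Batf3 at 0.23 and 0.44. Fosb and Egr3, relatives of Fos and Egr1, were above only 2.35% and 3.66% of coding genes per kilobase.

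**Figure D4:**
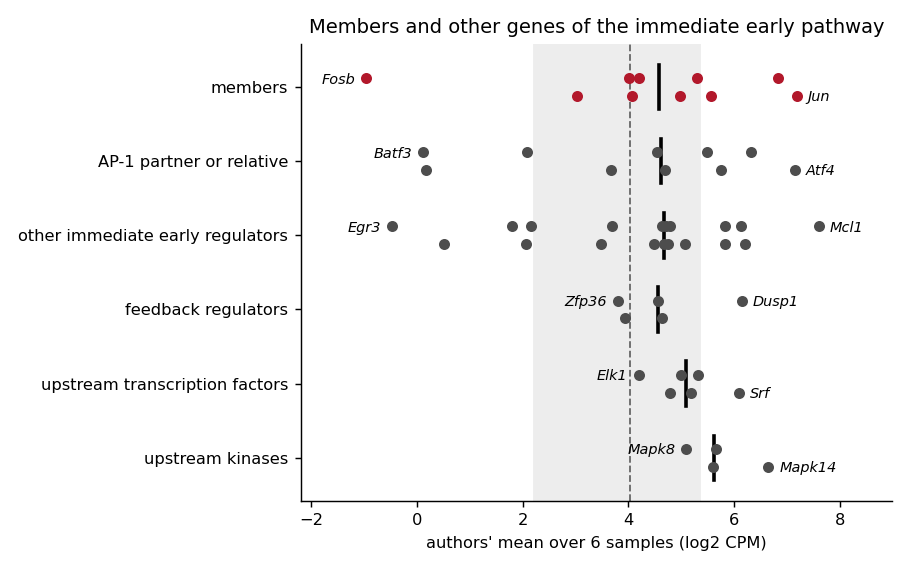
Points are single genes by class, at the authors' mean over 6 samples in log2 CPM; black bars mark the median of each class, and the dashed line and grey band the median and middle 50% of all listed genes. The members range from Fosb at -0.96 to Jun at 7.19, and all 4 upstream kinases lie to the right of the dashed line.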

How the data were processed

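RNA with a poly(A) tail from injured quadriceps of 6 mice was sequenced as paired-end reads. The paper's methods state that this muscle was flash frozen after dissection. Per the paper's methods, the authors pseudoaligned the reads with kallisto, gave the transcript abundances a gene identity and obtained CPM from edgeR. They required more than 1 CPM in 3 or more samples, took logs, applied TMM normalization and ran limma on genotype. How transcripts were combined per gene is not stated there. Per the labels, the build was GRCm39 (mm39). The kallisto index and the strand setting are not given in the sources used here. The deposited table has 1 column used here, the authors' mean log2 CPM over all samples. Its other columns hold the authors' own comparison of the genotypes (fold change, moderated t, p-values and log odds) and were not used, so the planned genotype test was not run. Of its 14016 rows, 1 has no symbol.

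Percentiles are the percent of listed genes with a lower mean. Geometric mean CPM is 2 raised to the deposited log2 value. In the GENCODE M21 annotation of GRCm38, 13436 symbols were found as written and 476 by a RefSeq synonym, and 13655 had a coding transcript. This build differs from the authors'. The coordinates only describe the genes, but the lengths enter every level per kilobase. The order, percentiles and family sums on that scale therefore depend on this annotation. Older symbols in the table (Cyr61, Ctgf, Mkl1 and Mkl2 for Ccn1, Ccn2, Mrtfa and Mrtfb, and Emr1 for Adgre1) were matched in the same way. Words of 31 bases were compared with all GENCODE transcripts on either strand. Functions were tested on simulated data (Python 3.11.15, numpy 2.4.6, scipy 1.17.1).

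The members and lists were chosen with earlier results of these data known. Named are all members and, of the list of related genes, those not listed, the 6 highest and the 4 lowest (1 gene of that list is not reported here); Fosl2, Egr2, Nr4a2, Nr4a3, Ccn1, Btg1, Btg2, Nab1, Nab2, Srf, Elk1 and Zfp36 were named after their values were seen. Alternatives were the length scale, coding genes only, minimum mean levels and a family sum without Jund.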

Additional observations from a re-analysis of the deposited data

How the results depend on the processing

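No paired analysis was possible because the mean used here is over all samples and no value per mouse was analysed; for the same reason leaving out a mouse, other pseudocounts, other models and the replicate block were not run. Division by transcript length lowered the median of the members from 4.59 log2 CPM to 3.39 log2 CPM per kilobase of the longest coding transcript, or 3.62 of the median coding transcript, by construction of the scale. The median percentile of the members was 60.9 among all listed genes and 60.3 among coding genes. It was 62.7 and 52.4 among genes with a mean of at least 1 and at least 3 log2 CPM, both of which leave out Fosb and so change which genes the median is over, and 68.9 per kilobase, a setting added after the data were seen. Of 45 pairs of members, 40 kept their order per kilobase of the longest coding transcript, and 40 per kilobase of the median one, where Klf4 rises to 5.20 because GENCODE holds short coding transcripts for it. The Jun sum over the Fos sum per kilobase was 9.09 and without Jund, a setting also added after the data were seen, 4.51. A minimum mean lowers the percentile of every remaining gene by construction, which accounts for 18 of the 38 percentiles of single genes recomputed. Of the other 20, 11 moved beyond a 95% binomial interval, which treats genes as independent draws and covers no variation between mice.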

Other observations

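The authors' filter and the mean of Fosb would together set a bound on its levels in the samples. If exactly 3 of the 6 samples exceeded 1 CPM (0 on the log2 scale), a mean of -0.96 log2 CPM requires the other 3 to average below -1.91 log2 CPM. This arithmetic holds only if the filter was applied to the same values as the mean. For the gene with the lowest listed mean, -4.08 log2 CPM, it would require far lower values in 3 samples. Whether the condition holds was not tested, so the bound for Fosb is uncertain. Which mice are low was not analysed here. The table holds 1198 genes with a mean below 0, and 1070 of them are coding genes.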
